A study of Homo sapiens with 12 samples.

Results

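The interleukin 1 family ligands and receptors described here were IL1A, IL1B, IL1RN, IL1R1, IL1R2, IL1RAP, IL18, IL33 and IL1RL1. They were chosen by name, and every probe set annotated to them alone was taken, which gave 21 probe sets of 9 genes out of 54612 probe sets and 19775 genes measured. The values came from 12 U133plus2.0 arrays of 3 human multiple myeloma cell lines. Each line stably carried green fluorescent protein (GFP) and was cultured for 24 hours either together with the unlabelled human stromal line HS-5, from bone marrow, or alone, after which GFP-positive cells were separated by fluorescence activated cell sorting. The 6 groups were MM.1S with HS-5, MM.1R with HS-5, INA-6 with HS-5, MM.1S alone, MM.1R alone and INA-6 alone. MM.1S is sensitive to dexamethasone, MM.1R is a resistant line derived from the same parent, and INA-6 is a line that depends on interleukin 6. Each group had 2 arrays, which are technical replicates, and HS-5 was the only stromal line. The sorted HS-5 cells were not analysed here.

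IL1A and IL1B encode the agonists interleukin 1 alpha and beta, which bind the receptor IL1R1 and recruit the co-receptor IL1RAP to signal through MYD88 and NF-kB. IL1RN encodes an antagonist that occupies IL1R1 without recruiting IL1RAP, and IL1R2 is a decoy receptor that binds ligand without signalling. IL18 and IL33 are related ligands, and IL1RL1 is the receptor of IL-33. In bone marrow, interleukin 1 is known as an inducer of IL6 in stromal cells, and IL6 is a growth factor of myeloma cells.

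The stretches of 250 bases before a transcription start are shown for IL1A and IL1B, since these are the members called in the fit common to the lines. They are RefSeq sequences of build GRCh38.p14, both from the minus strand and written 5′ to 3′, with matches to 3 searched motifs in capitals.
IL1A, chr2:112784494-112784743: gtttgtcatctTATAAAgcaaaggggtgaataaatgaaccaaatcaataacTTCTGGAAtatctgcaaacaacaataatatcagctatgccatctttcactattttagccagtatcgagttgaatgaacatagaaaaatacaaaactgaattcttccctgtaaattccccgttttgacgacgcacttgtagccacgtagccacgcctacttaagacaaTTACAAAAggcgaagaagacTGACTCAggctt
IL1B, chr2:112836780-112837029: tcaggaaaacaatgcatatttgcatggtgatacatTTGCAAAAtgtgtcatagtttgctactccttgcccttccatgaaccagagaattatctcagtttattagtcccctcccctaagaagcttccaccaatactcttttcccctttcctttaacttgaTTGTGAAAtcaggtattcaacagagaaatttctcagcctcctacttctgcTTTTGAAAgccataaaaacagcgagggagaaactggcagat
The motifs were AP-1 (TGANTCA), C/EBP (TTNNGNAA), a TATA box (TATAAA) and the NF-kB consensus, searched on both strands. The IL1A window shown held 1 AP-1 match, 2 C/EBP matches and 1 TATA match, and the IL1B window held 3 C/EBP matches. Neither of these windows held the letters of the NF-kB consensus. A second IL1A window, before another RefSeq start, overlapped the one shown. It held 2 AP-1 matches, 1 C/EBP match, 0 TATA matches and 0 NF-kB matches. Of 35116 RefSeq windows of the same length, 6.57% held the AP-1 letters, 33.2% the C/EBP letters, 10.7% the TATA letters and 9.96% the NF-kB letters. RefSeq windows were found for 8 of the 9 members, 17 windows in all, and IL18 was the member without one. Among these 17 windows, 4 held AP-1, 10 held C/EBP, 5 held TATA and 1 held NF-kB. A match describes letters and is not a binding site.

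The values were deposited intensities on a linear scale, on which the array medians lay between 19.78 and 24.09 and between 3.02% and 3.63% of each array stood at the floor of 1. Changes are differences of log2(intensity + 5), which understates the change of dim probe sets, and were tested with limma with Benjamini-Hochberg adjustment over all 54612 probe sets at 0.05. The change common to the lines used the mean of each pair of duplicates, so that the 3 lines were the replicates, although MM.1R and MM.1S are related. Changes within a line rest on duplicate arrays, so their p-values measure only the spread between arrays, which is technical. Duplicates correlated at 0.937 to 0.983 over all probe sets in 5 groups and at 0.834 in INA-6 alone. RNA quality measures differed between conditions: the 3′ to 5′ ratio of ACTB averaged 5.10 with HS-5 and 22.4 alone in MM.1S, 5.21 with HS-5 and 31.4 alone in MM.1R, and 32.0 with HS-5 and 5.51 alone in INA-6. The array control BioB averaged higher alone in every line. It was 346 with HS-5 and 1667 alone in MM.1S, 400 with HS-5 and 529 alone in MM.1R, and 721 with HS-5 and 3329 alone in INA-6. The part of these differences in the results was not tested. Of 10 plasma cell and myeloma markers, 9 lay above the array median on both arrays of every group, and CD27 was the exception. In the common fit limma called 0 of these 10, with 3 at an unadjusted p under 0.05, and the widest differences were 1.36 for IRF4 and 1.19 for PRDM1. Within the lines, 7 were called higher and 1 lower in MM.1S, and 5 higher and 0 lower in MM.1R. In INA-6, 3 were called higher and 4 lower, with SLAMF7 at -2.43 and MZB1 at -0.73. Of all genes, 17.5%, 9.84% and 29.6% were called higher in MM.1S, MM.1R and INA-6, and 5.73%, 1.96% and 10.8% lower. The summed intensity of the 10 markers was 22819 with HS-5 and 11385 alone in MM.1S, 22797 with HS-5 and 16415 alone in MM.1R, and 15709 with HS-5 and 17701 alone in INA-6.

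IL1A, IL1B and IL1R1 were higher with HS-5 in every line, while no member was called lower in any line under the main settings. In the fit common to the lines, 3 probe sets of 2 genes, IL1A and IL1B, were called higher and 0 lower, against 0.537% of all probe sets called higher and 0.549% in either direction. At an unadjusted p under 0.05 there were 5 of the 21 member probe sets, against 8782 of all 54612 probe sets. Within each line the same number of probe sets passed, 4 of 21 from 3 genes, all higher. The shares of all probe sets called higher were 12.8% in MM.1S, 6.96% in MM.1R and 23.0% in INA-6, and in either direction they were 18.3%, 9.1% and 32.8%. The median change over the 21 probe sets was 0.04 in the common fit, against -0.04 over all probe sets. Only 9 of the 21 probe sets lay above their array's median on at least 2 arrays, and IL1R2, IL18 and IL33 had none that did. On 4 probe sets of 3 genes all coculture arrays lay above all arrays of cells alone, an arrangement that 7.24% of all probe sets showed.

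**Figure D1:**
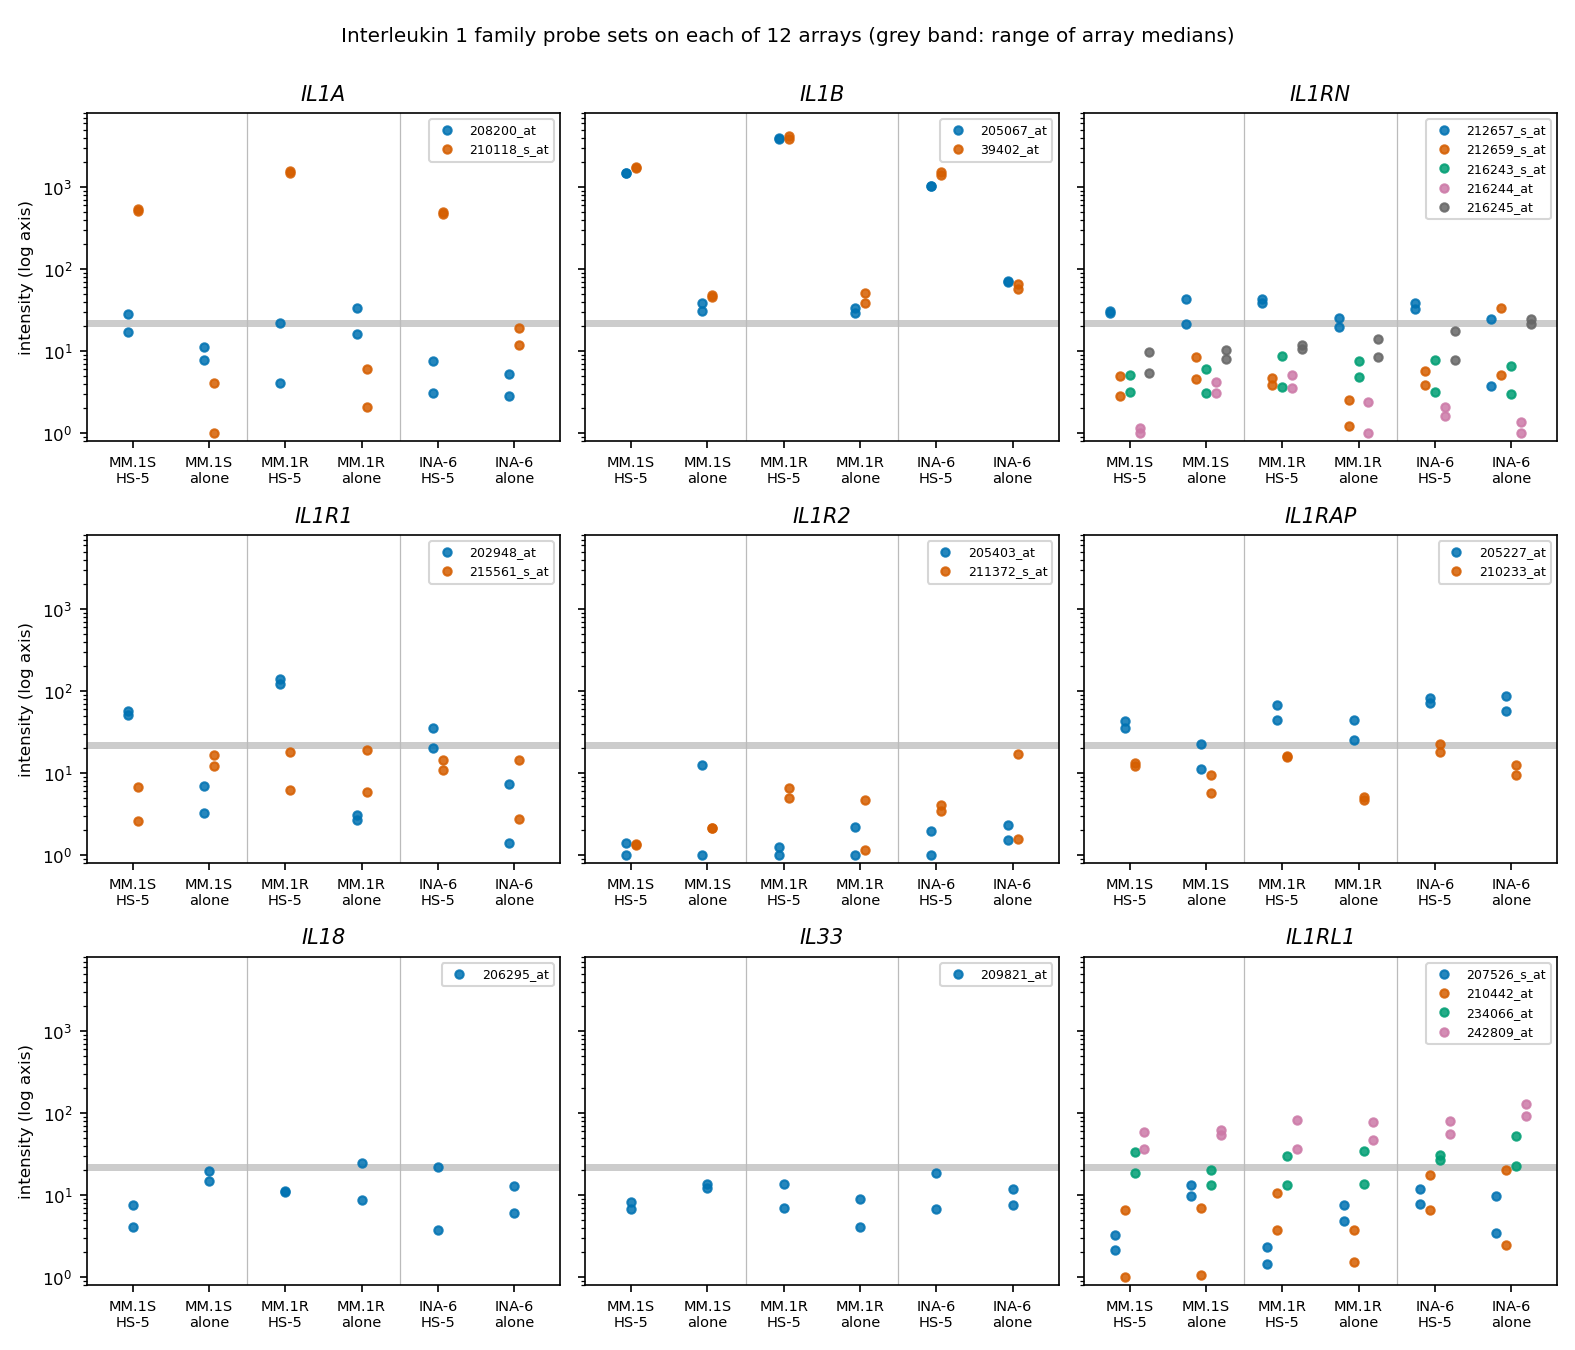
Intensity of each member probe set on each of the 12 arrays (log axis), by line, with HS-5 left of alone; each point is 1 array, and the grey band is the range of array medians. IL1A 210118_s_at, both IL1B probe sets and IL1R1 202948_at are the probe sets whose coculture points all lie above their points for cells alone.

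Among the ligands, IL1A was read by 2 probe sets that disagreed. On 210118_s_at the intensity was 544 and 506 in MM.1S with HS-5, against 4.13 and 1 in MM.1S alone. In MM.1R it was 1549 and 1491 with HS-5, against 2.06 and 6.02 alone. In INA-6 it was 503 and 463 with HS-5, against 11.9 and 19.0 alone. Every coculture array was far above every array of cells alone, all of which lay below their array's median. The common log2 change was 6.06 ± 0.60 (SE, limma adjusted p = 0.0103). Within the lines the log2 change was 6.16 ± 0.32 in MM.1S (adjusted p = 4.8e-07), 7.43 ± 0.32 in MM.1R (5.29e-07) and 4.60 ± 0.32 in INA-6 (3.55e-06). Since the values alone stood near the floor, the size depends on the value added before the logarithm, and the common change ran between 5.04 and 6.88 over all alternatives, in each of which it passed. On the other IL1A probe set, 208200_at, intensities ran between 3.06 and 28.25 with HS-5 and between 2.87 and 33.95 alone. These groups overlapped, and the common log2 change was 0.07 ± 0.39 (adjusted p = 0.941).

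IL1B, the secreted agonist that caspase-1 cleaves to its active form, was higher on both of its probe sets. On 39402_at the intensity was 1771 and 1718 in MM.1S with HS-5, against 47.6 and 45.8 in MM.1S alone. In MM.1R it was 3826 and 4186 with HS-5, against 38.5 and 51.1 alone. In INA-6 it was 1535 and 1390 with HS-5, against 57.7 and 65.8 alone. The groups did not overlap, and IL1B was above the array median in cells alone as well. The means were 1744 ± 37.5 with HS-5 and 46.7 ± 1.33 alone in MM.1S, 4006 ± 254 with HS-5 and 44.8 ± 8.92 alone in MM.1R, and 1463 ± 102 with HS-5 and 61.7 ± 5.69 alone in INA-6 (SD, n = 2 arrays each). As ratios of mean intensity these were 37.4-fold in MM.1S, 89.5-fold in MM.1R and 23.7-fold in INA-6. The common log2 change was 5.29 ± 0.51 (SE, limma adjusted p = 0.0101).

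The second IL1B probe set, 205067_at, gave 1481 and 1496 in MM.1S with HS-5, against 38.6 and 31.0 in MM.1S alone. In MM.1R it gave 3944 and 3877 with HS-5, against 29.1 and 33.6 alone. In INA-6 it gave 1025 and 1043 with HS-5, against 70.7 and 69.8 alone. Both probe sets therefore had the same order of lines with HS-5, MM.1R above MM.1S above INA-6. The common log2 change on 205067_at was 5.26 ± 0.61 (SE, limma adjusted p = 0.0171), and the adjusted p was 0.0507 without INA-6 alone replicate 1. Within the lines the log2 change was 5.24 in MM.1S (adjusted p = 4.25e-08), 6.75 in MM.1R (1.97e-08) and 3.79 in INA-6 (2.80e-07).

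The other ligands stayed near or below the array medians. IL18, an inducer of interferon gamma, ran between 3.79 and 21.72 in intensity with HS-5 and between 6.05 and 24.46 alone. Its common log2 change was -0.41 (limma adjusted p = 0.548). IL33, an alarmin held in the nucleus, ran between 6.76 and 18.63 with HS-5 and between 4.06 and 13.62 alone. Its common log2 change was 0.03 (adjusted p = 0.967), and both genes overlapped between conditions.

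The antagonist IL1RN was read by 5 probe sets, of which 212657_s_at was the one often above the array median. On it the intensity was 31.1 and 28.8 in MM.1S with HS-5, against 21.6 and 42.7 in MM.1S alone. In MM.1R it was 43.5 and 38.1 with HS-5, against 19.6 and 25.4 alone. In INA-6 it was 38.8 and 33.0 with HS-5, against 3.70 and 24.4 alone. The conditions overlapped in MM.1S and did not in MM.1R or INA-6, an arrangement within lines that was not counted over all probe sets. The probe set lay above the array median on 6 of 6 arrays with HS-5 and on 3 of 6 alone. The common log2 change was 0.69 ± 0.42 (SE, limma adjusted p = 0.436). In INA-6 the log2 change was 1.35 ± 0.54 (adjusted p = 0.0823), and the arrays of INA-6 alone decided its size: it was 0.47 without replicate 1 (adjusted p = 0.381) and 2.23 without replicate 2 (adjusted p = 0.0023). The other 4 IL1RN probe sets lay between 1 and 33.93, and none was called in any line with all arrays. Without INA-6 alone replicate 1, 212659_s_at was called lower in INA-6 at -2.00 (adjusted p = 0.00099), opposite in sign to 212657_s_at.

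The signalling receptor IL1R1 was higher within each line on 202948_at. The intensity was 51.3 and 57.6 in MM.1S with HS-5, against 3.30 and 7.02 in MM.1S alone. In MM.1R it was 141 and 123 with HS-5, against 3.12 and 2.66 alone. In INA-6 it was 20.3 and 35.04 with HS-5, against 7.29 and 1.42 alone. The groups did not overlap, and all arrays of cells alone were below their median. With HS-5, 5 of 6 arrays were above their median, and INA-6 replicate 1 was below it. The log2 change was 2.57 ± 0.43 in MM.1S (SE, limma adjusted p = 0.00174), 4.11 ± 0.43 in MM.1R (adjusted p = 0.000172) and 1.84 ± 0.43 in INA-6 (adjusted p = 0.00758). With values alone near the floor these sizes moved with the alternatives, between 1.74 and 3.24 in MM.1S, 2.97 and 5.09 in MM.1R, and 1.10 and 2.63 in INA-6. The INA-6 call was lost without INA-6 coculture replicate 2 (adjusted p = 0.0790) and when the 4 arrays of that line were fitted alone (adjusted p = 0.106). The common log2 change of 2.84 ± 0.48 did not pass (adjusted p = 0.0582), and it passed in 13 of 24 alternatives. The other probe set, 215561_s_at, disagreed: it ran between 2.62 and 18.20 with HS-5 and between 2.78 and 19.11 alone, with a common log2 change of -0.17.

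The co-receptor IL1RAP was read by 2 probe sets, of which 210233_at was below the array median on all 12 arrays. On 205227_at the intensity was 35.4 and 42.9 in MM.1S with HS-5, against 22.6 and 11.1 in MM.1S alone. In MM.1R it was 44.6 and 66.8 with HS-5, against 25.6 and 44.9 alone. In INA-6 it was 83.4 and 71.3 with HS-5, against 86.2 and 57.8 alone. Both arrays of MM.1S alone were below their medians. The conditions overlapped in MM.1R and INA-6, and the common log2 change was 0.60 ± 0.42 (SE, limma adjusted p = 0.496). On 210233_at both coculture arrays were above both arrays alone within each line, an arrangement not counted over all probe sets. Its common log2 change was 0.75 ± 0.30 (adjusted p = 0.289), and it was called on unaveraged arrays (adjusted p = 0.0278). In MM.1R its log2 change was 1.07 ± 0.33 (adjusted p = 0.0849), and it was called without the trend (adjusted p = 0.0268). On 205227_at the log2 change in MM.1S was 1.06 ± 0.40 (adjusted p = 0.108).

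The decoy receptor IL1R2 was dim on both probe sets, between 1 and 12.44 in intensity on 205403_at and between 1.14 and 17.04 on 211372_s_at. Their common log2 changes were -0.31 and -0.05, and neither passed. Single arrays of cells alone moved the changes within lines. On 205403_at the log2 change in MM.1S was -0.72, and -1.49 without MM.1S alone replicate 1. On 211372_s_at it was -0.46 in INA-6, and -1.34 without INA-6 alone replicate 1. IL1RL1 was read by 4 probe sets, of which 242809_at lay above the array median on 12 of 12 arrays. On it the intensity ran between 35.99 and 81.41 with HS-5 and between 47.03 and 128.12 alone, and the conditions overlapped. None of the 4 IL1RL1 probe sets was called in any line under the main settings. In MM.1S 207526_s_at differed by -1.09 (limma adjusted p = 0.0563), and it was called lower without the trend (adjusted p = 0.0441). After quantile normalization 242809_at was called lower in INA-6 at -1.38 (adjusted p = 0.0281).

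**Figure D2:**
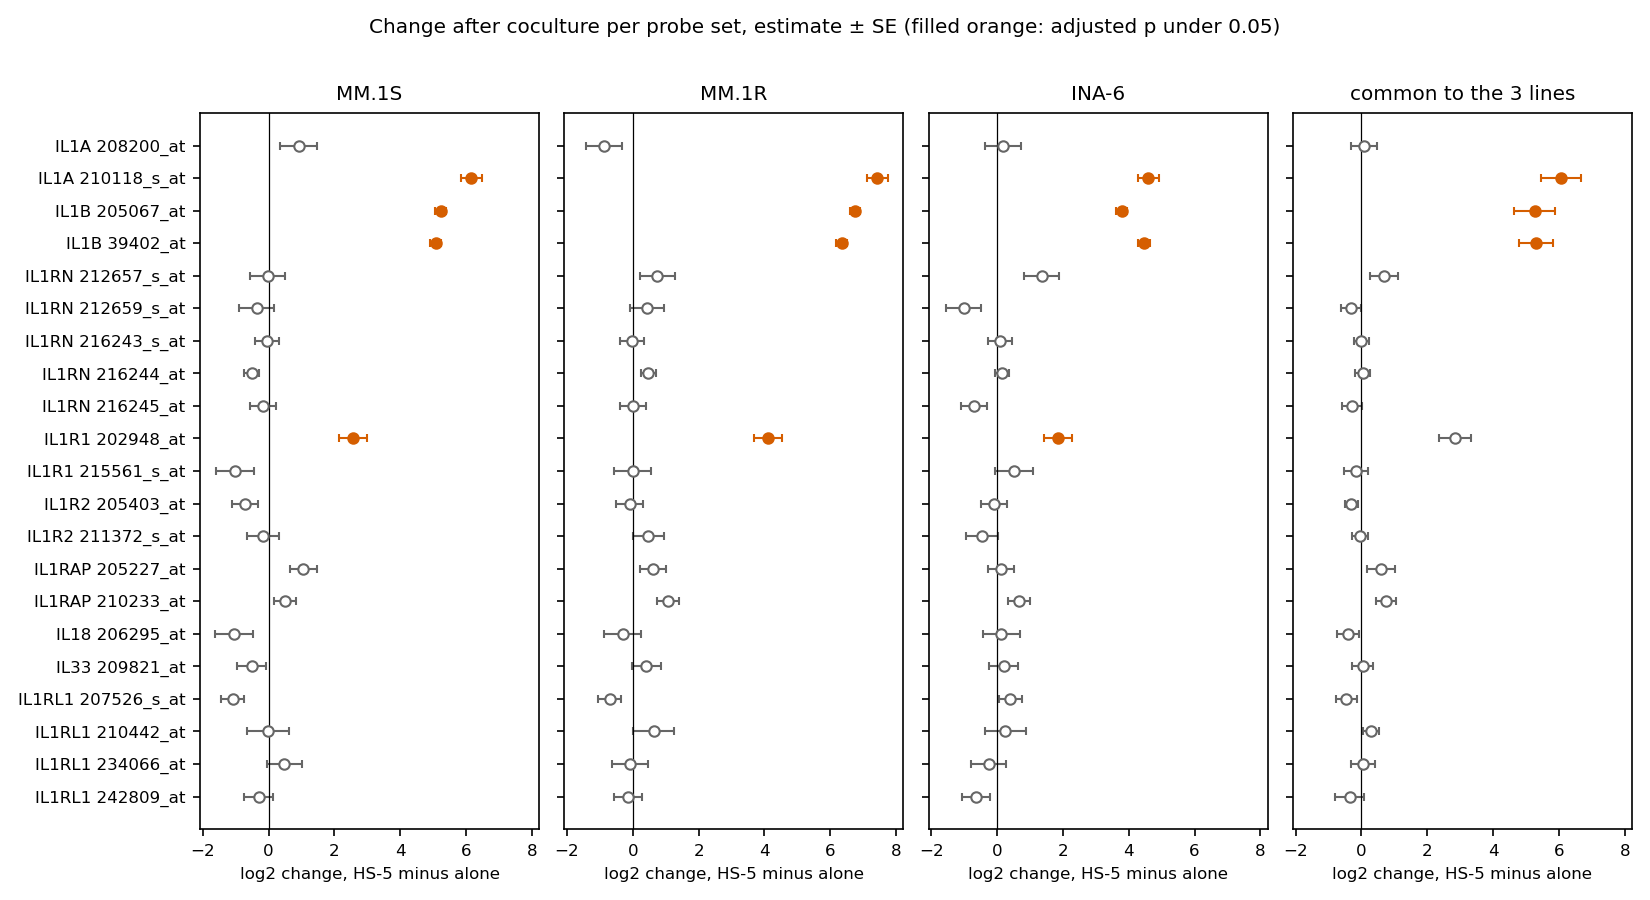
Log2 change (HS-5 minus alone) of each member probe set with its SE, in each line and common to the 3 lines; filled orange points have an adjusted p under 0.05. In each line the called probe sets are IL1A 210118_s_at, both of IL1B and IL1R1 202948_at, and in the common fit IL1R1 is not called.

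The size of the coculture change differed between lines for IL1A and IL1B. In limma's F-test of that difference, 3 of the 21 probe sets passed, against 20.9% of all probe sets. The members as a set were thus not called more often than probe sets in general. The ACTB 3′ to 5′ ratio was higher alone in the MM.1 lines and higher with HS-5 in INA-6. Its part in the difference between lines was not tested. The adjusted p was 0.00354 for IL1A 210118_s_at, 3.60e-05 for IL1B 205067_at and 0.000812 for IL1B 39402_at, and it was 0.0515 for IL1R1 202948_at. For IL1A the change in INA-6 minus the mean change in the MM.1 lines was below 0 (adjusted p = 0.00218), but its size rests on values near the floor in cells alone. With HS-5, where all arrays were above their medians, IL1A in INA-6 minus the MM.1 lines was -0.88 ± 0.28 on the log2 scale and did not pass (adjusted p = 0.0685). For IL1B the difference in change was -2.21 ± 0.20 on 205067_at (SE, adjusted p = 2.89e-05) and -1.25 ± 0.21 on 39402_at (adjusted p = 0.00151), where 23.7% of all probe sets passed. Between the related lines, the change in MM.1R minus that in MM.1S was 1.52 ± 0.23 for IL1B 205067_at (adjusted p = 0.00650) and 1.26 ± 0.24 for 39402_at (adjusted p = 0.0236), where 2.25% of all probe sets passed. For IL1A it was 1.27 ± 0.45 and did not pass (adjusted p = 0.282).

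Levels before and after coculture entered these differences together. In cells alone, 3 member probe sets were called higher in INA-6 than in the MM.1 lines on average, against 14.7% of all probe sets. These were IL1B 205067_at by 0.99 ± 0.14 on the log2 scale (SE, limma adjusted p = 0.000288), IL1RAP 205227_at by 1.40 ± 0.35 (adjusted p = 0.00990) and IL1A 210118_s_at (adjusted p = 0.00359). For IL1A all 6 arrays of cells alone were below their medians, so the size is not fixed, and the log2 difference ran between 0.70 and 2.06 over the alternatives. IL1B 39402_at differed by 0.40 ± 0.15 and did not pass (adjusted p = 0.0600). Between MM.1R alone and MM.1S alone limma called 0 members, 0 also at an unadjusted p under 0.05, where 5.33% of all probe sets passed.

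With HS-5, the order of levels on IL1A 210118_s_at, both IL1B probe sets and IL1R1 202948_at was MM.1R, MM.1S, INA-6. INA-6 was below the mean of the MM.1 lines on 3 probe sets and above on 0, where 12.6% of all probe sets passed in either direction. The log2 difference was -1.22 ± 0.14 for IL1B 205067_at (SE, limma adjusted p = 0.000270), -0.85 ± 0.15 for IL1B 39402_at (adjusted p = 0.00339) and -1.50 ± 0.37 for IL1R1 202948_at (adjusted p = 0.0236). The IL1R1 call was lost without any 1 of the 6 coculture arrays (adjusted p between 0.0551 and 0.285), and that of IL1B 39402_at without INA-6 coculture replicate 2 (adjusted p = 0.0724). MM.1R exceeded MM.1S on IL1B 205067_at by 1.39 ± 0.16 (adjusted p = 0.0260), where 0.0293% of all probe sets passed, and this call was kept in 8 of 19 alternatives and lost without any 1 of the 4 coculture arrays of these lines (adjusted p between 0.639 and 0.759). On IL1A the same difference was 1.53 ± 0.32 and did not pass (adjusted p = 0.415). As neighbours in the order, MM.1S and INA-6 did not pass on any of the 4 probe sets.

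Many stromal markers moved with these members, and others did not. Of 37 stromal and fibroblast markers 36 were measured, and their summed intensity was 20737 with HS-5 and 3446 alone in MM.1S, 36853 with HS-5 and 4901 alone in MM.1R, and 19298 with HS-5 and 8949 alone in INA-6. With HS-5, 28 of 36 were above the array median on both arrays in MM.1S, 30 in MM.1R and 28 in INA-6, against 18, 17 and 20 in the same lines alone. In the common fit 8 of the 36 were called higher and 0 lower, among them COL6A2 by 7.15 ± 0.49 on the log2 scale (SE, limma adjusted p = 0.00852) and COL6A1 by 6.75 ± 0.48 (0.00852), which encode chains of collagen VI. LUM, PDGFRA, POSTN and VCAM1 were not above the array median on both arrays of any group. The order of the summed level with HS-5, MM.1R above MM.1S above INA-6, was that of IL1A, IL1B and IL1R1. The sort kept GFP-positive cells and was meant to leave out the unlabelled HS-5 cells, and the sources used here give no purity for it. The part of the stromal markers in the result was not tested, and in bulk RNA more cells of a type and more RNA per cell cannot be told apart. Myeloid cells are a usual source of IL1B, and the summed intensity of 9 measured myeloid markers was 167 with HS-5 and 234 alone in MM.1S, 143 with HS-5 and 160 alone in MM.1R, and 134 with HS-5 and 236 alone in INA-6. Of these, CD14, LYZ, CD163, FCGR1A, AIF1 and TYROBP were not above the array median on both arrays of any group. In the common fit limma called 0 of the 9, with 1 at an unadjusted p under 0.05, and the widest differences were -1.06 for FCER1G and -0.64 for CD163.

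**Figure D3:**
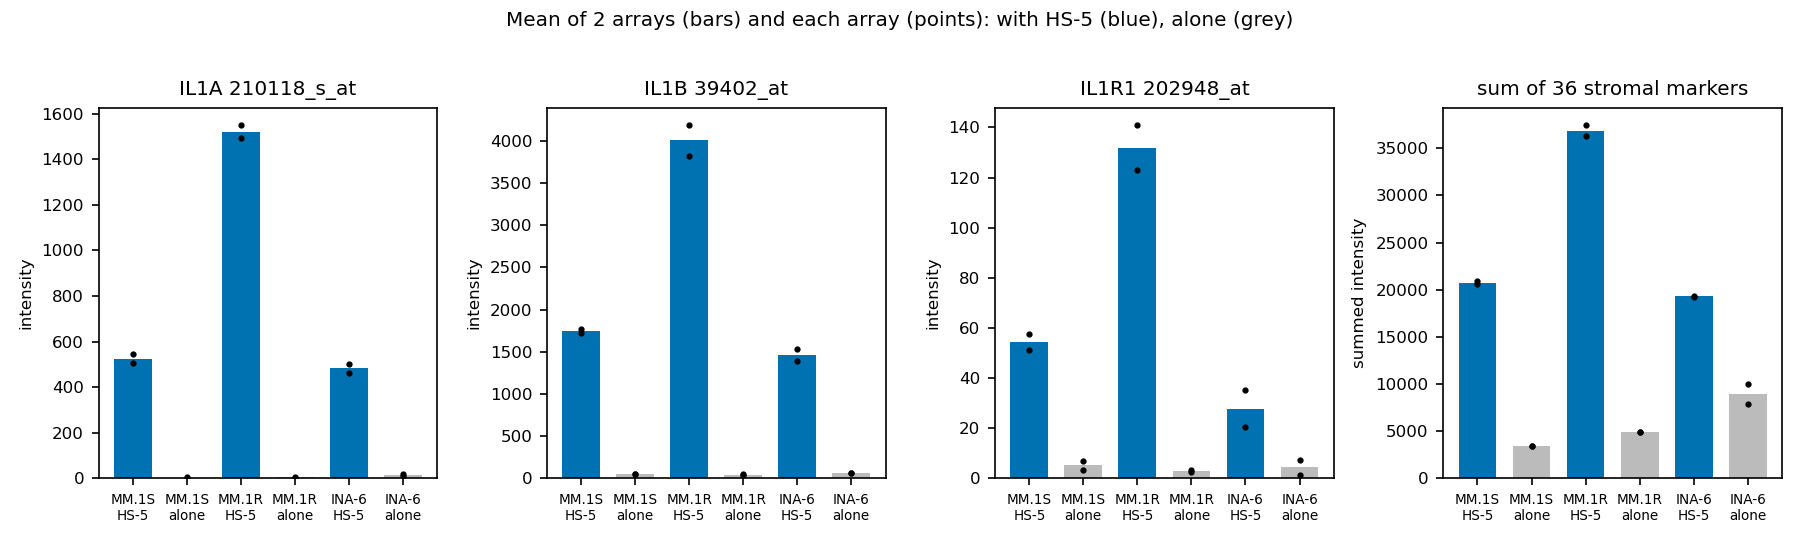
Intensity of IL1A 210118_s_at, IL1B 39402_at and IL1R1 202948_at and the summed intensity of 36 stromal markers (linear axes from 0), with bars for the mean of 2 arrays and points for each array, with HS-5 (blue) left of alone (grey). In all 4 panels MM.1R with HS-5 is the highest group.

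Genes around the members were described by role, with 1 probe set per gene, the one with the highest mean. In the common fit 0.839% of 19775 genes were called higher and 0.00506% lower, and the median change over all genes was 0.05. When only these probe sets were fitted, 3869 of the 19775 genes were at an unadjusted p under 0.05. Of 13 other family members, such as the IL-36 cytokines and the IL-18 receptor, limma called 0, with 2 at an unadjusted p under 0.05 and a median log2 change of -0.24. IL18RAP, a chain of the IL-18 receptor, had the widest change of these at -1.18 (adjusted p = 0.236), and it was called lower in INA-6, at -2.12. IL18BP, a secreted inhibitor of IL-18, differed by -0.73 without passing (adjusted p = 0.431).

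Of 19 measured genes that carry the signal from the receptor, 0 were called in the common fit by limma, with 5 at an unadjusted p under 0.05 and a median log2 change of 0.64. IRAK2, a kinase of the MYD88 complex, gave 401 and 388 in intensity in MM.1S with HS-5, against 89.0 and 42.2 in MM.1S alone. In MM.1R it gave 560 and 579 with HS-5, against 49.7 and 72.9 alone. In INA-6 it gave 1113 and 1108 with HS-5, against 275 and 144 alone. IRAK2 was called in each line, with log2 changes of 2.58 in MM.1S, 3.14 in MM.1R and 2.45 in INA-6. The common change of 2.72 ± 0.45 did not pass (adjusted p = 0.0550). TAB2, an adaptor of the kinase TAK1, differed by 1.78 without passing (adjusted p = 0.234). Within the lines the signalling genes called higher were 7 in MM.1S, 3 in MM.1R and 15 in INA-6, with 1 lower in each, against 17.5%, 9.84% and 29.6% of all genes called higher and 5.73%, 1.96% and 10.8% called lower in those lines.

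Of 17 genes of processing and release, which include the inflammasome and its regulators, 0 were called in the common fit by limma, with 7 at an unadjusted p under 0.05 and a median log2 change of 0.39. CARD16, a regulator of caspase-1, differed by 2.63 ± 0.48 without passing (adjusted p = 0.0731), and so did CAPNS1, a calpain subunit, by 2.57 (adjusted p = 0.144). PYCARD, the inflammasome adaptor, differed by 2.38 in the common fit (adjusted p = 0.0994) and was called higher in each line, by 3.05 in MM.1S, 1.58 in MM.1R and 2.51 in INA-6. Within the lines 7, 6 and 9 genes of this list were called higher in MM.1S, MM.1R and INA-6, against the same 17.5%, 9.84% and 29.6% of all genes. CARD8, a regulator of inflammasomes, was called lower in MM.1S at -0.94 (adjusted p = 0.00545), and AIM2, a sensor of cytosolic DNA, was called lower in INA-6 at -1.35 (adjusted p = 8.4e-06) and higher in both MM.1 lines.

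Of 21 measured genes known as interleukin 1 targets, 11 were called higher in the common fit and 0 lower, with a median log2 change of 3.84. MMP1, a collagenase, was higher by 8.28 ± 0.48 (SE, limma adjusted p = 0.00766) and the chemokine CXCL8 by 7.12 ± 0.58 (0.00852). IL6 gave 2596 and 2568 in intensity in MM.1S with HS-5, against 5.69 and 27.0 in MM.1S alone. In MM.1R it gave 5115 and 5134 with HS-5, against 24.2 and 25.8 alone. In INA-6 it gave 1621 and 1575 with HS-5, against 35.6 and 101 alone. IL6 did not overlap between conditions, and its common log2 change was 6.39 (adjusted p = 0.0101). The other called targets were PTGS2, CSF3, CCL20, MMP3, CXCL2, CXCL3, CXCL1 and LIF, with log2 changes between 3.84 and 6.02. Within the lines 16, 17 and 15 targets were called higher in MM.1S, MM.1R and INA-6, with 0 lower, against 17.5%, 9.84% and 29.6% of all genes called higher. Of the 36 stromal markers 20, 23 and 17 were called higher in the same lines, and 16, 13 and 18 were not called. The collagen gene COL1A1 was called lower in INA-6 at -1.76 (limma adjusted p = 0.0188). Its intensity in INA-6 was 262 and 261 with HS-5, against 441 and 1817 alone. The size therefore rests largely on INA-6 alone replicate 2. Many stromal markers thus moved with the targets and others did not, and their part in the change of the targets was not tested.

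**Figure D4:**
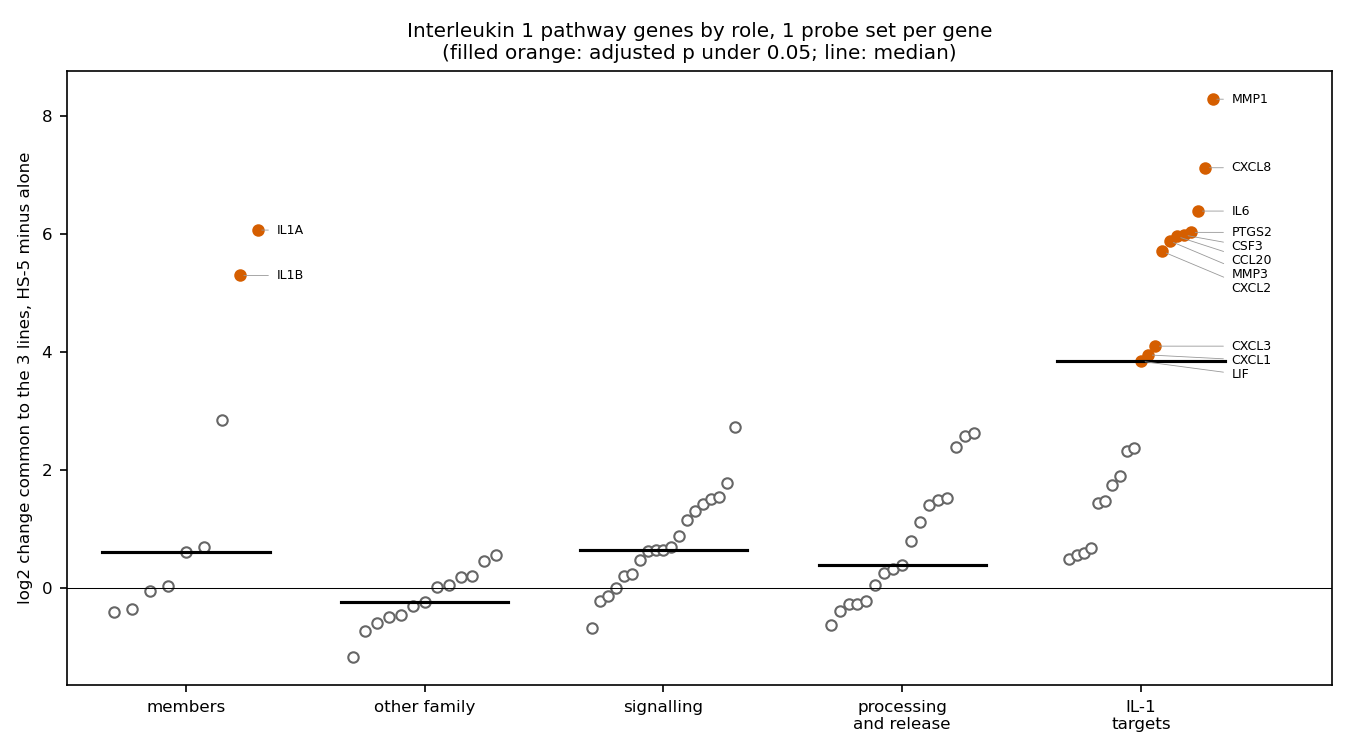
Log2 change common to the 3 lines (HS-5 minus alone) of the members and of 4 lists of related genes, 1 probe set per gene; filled orange points have an adjusted p under 0.05, and lines are list medians. Called genes lie among the members (IL1A, IL1B) and the interleukin 1 targets, whose median is 3.84.

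The members lie in 2 runs of family genes on chromosome 2, apart from IL18, IL33 and IL1RAP. In RefSeq's order the ligand run holds 9 genes, IL1A, IL1B, IL37, IL36G, IL36A, IL36B, IL36RN, IL1F10 and IL1RN. The 6 genes between IL1B and IL1RN had 8 probe sets, of which limma called 0 in the common fit, 0 also at an unadjusted p under 0.05, with log2 changes between -0.46 and 0.56. The receptor run holds 6 genes, IL1R2, IL1R1, IL1RL2, IL1RL1, IL18R1 and IL18RAP. Its 3 genes that are no members had 3 probe sets, of which limma called 0, with 2 at an unadjusted p under 0.05 and log2 changes between -1.18 and 0.05.

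By Pearson correlation of log2 values over the 12 arrays, the genes most like IL1A were GNG11 (r = 0.996), IER3 (0.995) and IL1B (0.994). Those most like IL1B 39402_at were CSF3 (r = 0.999), COL6A2 (0.998) and COL1A2 (0.997). The arrays are duplicates of 6 groups, and an r above 0.95 was shared by 175 of 19775 genes for IL1A and by 192 for IL1B.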

How the data were processed

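Gene expression was measured on 12 arrays, 2 per group. The deposited values are intensity per probe set on a linear scale. MAS5 is the tool listed per the submitters' processing notes, whereas the series design text names dChip with averaging of duplicates, which the 12 separate columns do not show. Tool versions were not given in the sources used here. Of 54675 probe sets, 62 controls and 1 with a missing value were left out. The array annotation gave 41097 probe sets 1 symbol, 1801 several and 11776 none.

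Values were taken to log2 after adding 5 and fitted with limma 3.58.1 in R 4.3.3, with an intensity trend, no level filter and Benjamini-Hochberg adjustment over all 54612 probe sets. The common fit used duplicate means with line as a block (2 residual degrees of freedom). The others used a mean per group over 12 arrays (6 residual degrees of freedom). The contrasts that split the difference between lines were added to the planned F-test. Fits were tested on simulated data.

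All 9 members are named, with the 2 largest called changes of each list in each direction, or the 2 widest where fewer were called, and the 3 genes most like each called member. Further genes (PYCARD, CARD8, AIM2, SLAMF7, MZB1, COL1A1, IL6's fellow called targets) were chosen after their values were seen. Members and lists were chosen with earlier results of these data known. The number of arrays limits the precision. Alternatives were other added values, a level filter, quantile normalization, median centring, no trend, 1 probe set per gene, a replicate block, unaveraged arrays, and leaving out each array or line.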

Additional observations from a re-analysis of the deposited data

Results flagged for a closer look

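The coculture change differed between the 3 lines in limma's F-test for 3 of the 21 member probe sets, against 20.9% of all probe sets. Such a difference was thus not more frequent among the members than in general. For IL1A 210118_s_at the adjusted p was 0.00354, with log2 changes of 6.16 in MM.1S, 7.43 in MM.1R and 4.60 in INA-6, sizes that rest on values near the floor in cells alone. For IL1B 205067_at the adjusted p was 3.60e-05, with changes of 5.24 in MM.1S, 6.75 in MM.1R and 3.79 in INA-6. For IL1B 39402_at it was 0.000812, with changes of 5.08 in MM.1S, 6.34 in MM.1R and 4.46 in INA-6. Every one of these changes was positive, so the lines differed in size and not in direction. The spread behind these tests is between duplicate arrays. The ACTB 3′ to 5′ ratio differed between conditions in the opposite direction in INA-6 from the MM.1 lines, and its part was not tested. Groups of 2 arrays are too small to single out an array.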

How the results depend on the processing

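No called change reversed. In the common fit 2 member genes passed, 4 with unaveraged arrays, 4 without INA-6 and 2 to 3 with an array left out. Over all probe sets 300 passed: 183 after adding 16, 484 with the level filter, 144 after quantile normalization, 176 without the trend, 9464 unaveraged, 6748 without INA-6, 770 without MM.1R, 544 without MM.1S and 83 to 387 with an array left out. Deviations of replicate 1 from the group mean correlated between conditions at 0.29 in MM.1S, 0.47 in MM.1R and 0.06 in INA-6. Between MM.1S and MM.1R groups these correlations lay between -0.41 and -0.27. Those of INA-6 groups lay between 0.13 and 0.19 with MM.1S and between -0.20 and -0.14 with MM.1R. Whether replicate numbers mark a shared array effect was not tested. The replicate block can only be fitted on unaveraged arrays: 4 member genes and 8359 probe sets passed with it, against 4 and 9464 unaveraged without it.

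Leaving out arrays moved the member genes called to 3 to 5 in MM.1S, 3 to 4 in MM.1R, 2 to 5 in INA-6, 2 to 6 for the difference between lines, 0 to 1 for MM.1R minus MM.1S alone, 3 to 6 for INA-6 minus the MM.1 lines alone, 0 to 2 for MM.1R minus MM.1S with HS-5 and 1 to 4 for INA-6 minus the MM.1 lines with HS-5. In each line and for the difference between lines, the highest of these member counts was reached without INA-6 alone replicate 1. The calls over all probe sets were also most numerous there, so these upper ends are not particular to the members. Among member genes, MM.1R minus MM.1S with HS-5 gave 1, and 0 after centring, without the trend, with 1 probe set per gene and with the replicate block. The share of calls that were higher was 69.7% in MM.1S (57.1% after quantile normalization), 76.5% in MM.1R (56.0%), 70.0% in INA-6 (59.1%) and 83.6% for MM.1R minus MM.1S alone (68.7%). The cause was not tested. Dim probe sets near the floor of 1 limit IL1R2, IL18, IL33 and IL1R1 in cells alone.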
